A study of Homo sapiens with 8 samples.

Results

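NF-κB is a family of dimeric transcription factors that switches on inflammatory and survival genes. The genes described here are 10 components of that system: the 5 subunits (NFKB1, NFKB2, REL, RELA and RELB), 3 IκB inhibitors that hold the dimers in the cytoplasm (NFKBIA, NFKBIB and NFKBIE), and 2 ubiquitin enzymes that act in its signalling complexes (TNFAIP3 and BIRC3). They were chosen by gene symbol from the deposited table, where each of the 10 had 1 row among 17681 rows, or 17649 genes after rows of the same symbol were averaged. The values came from MDA-MB-231, an established estrogen receptor-negative human breast cancer cell line, in 4 control libraries and 4 libraries from cells exposed for 48 hours to 1 μM N-(1-carboxymethyl)-L-lysine (CML, also written NCML). The study's methods give phosphate-buffered saline as the control exposure and 5 mM glucose in both groups. CML is an advanced glycation end product, a lysine modified by a sugar or a fragment of one. The study describes it as a candidate ligand of the receptor RAGE, whose signalling is known to reach NF-κB. The question was whether CML moved the transcripts of the NF-κB machinery in these cells. All libraries came from 1 cell line, 1 dose and 1 time, and nothing states that replicates were separate cultures, so p-values measure only the spread between these libraries, which may be technical.

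In the classical pathway, a kinase complex marks IκB proteins for destruction and RELA-NFKB1 dimers enter the nucleus. In the alternative pathway, the NFKB2 precursor is processed and works with RELB. Several genes of the system, among them NFKBIA, TNFAIP3, BIRC3, NFKB1, NFKB2, REL and RELB, are themselves textbook targets of NF-κB, so their transcripts form feedback loops.

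Because members of the system are NF-κB targets, the regions before their start sites were examined first. RefSeq promoter windows (GRCh38.p14) were matched by symbol for 8 of the 10 genes, RELB and NFKBIE being those without a window. The 250 bases before each annotated start were searched on both strands for the 10-base κB consensus. At least 1 match was found in 8 of 13 windows, against 9.96% of 35116 windows of the same length over all genes. By gene, 7 of these 8 had a match, against 11.8% of 27305 genes. Most of the 10 were known targets beforehand. The 5 stretches below, 30 bases each and 5′ to 3′ in the direction of the gene, show the match in the main inhibitor, in 2 subunits and in both ubiquitin enzymes. Capitals mark 1 consensus match in each stretch, merged where matches on both strands overlap.
NFKBIA, chr14:35404811-35404840, minus strand: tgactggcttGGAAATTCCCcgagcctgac
NFKB1, chr4:102501300-102501329, plus strand: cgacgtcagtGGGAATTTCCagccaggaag
NFKB2, chr10:102394462-102394491, plus strand: aaacgtcatGGGAATTCCCCcctccggggg
TNFAIP3, chr6:137867194-137867223, plus strand: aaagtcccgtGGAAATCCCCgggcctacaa
BIRC3, chr11:102317275-102317304, plus strand: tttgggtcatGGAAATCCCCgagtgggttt
The matches began 81 bases before the start in NFKBIA, 49 in NFKB1, 107 in NFKB2, 55 in TNFAIP3 and 199 in BIRC3. The NFKB2 and TNFAIP3 stretches lie before the starts at positions 102394578 and 137867259, and the window before the first start of NFKB2 held no match. REL, with a match beginning 47 bases before its start, and NFKBIB, with 1 beginning 28 bases before its second start, also held the consensus. Neither of the 2 windows of RELA did, which says only that these letters are not in those windows. A match is a description of sequence and not evidence that a factor was bound in these cells.

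The base composition around the matches differed strongly between genes. The 250 bases before the NFKB1 start were 72.0% G or C, against 59.2% before the NFKBIA start and 52.4% before the BIRC3 start. The last of these regions, shown whole because BIRC3 had the largest difference between groups, carries 2 matches in capitals.
BIRC3, chr11:102317234-102317483, plus strand: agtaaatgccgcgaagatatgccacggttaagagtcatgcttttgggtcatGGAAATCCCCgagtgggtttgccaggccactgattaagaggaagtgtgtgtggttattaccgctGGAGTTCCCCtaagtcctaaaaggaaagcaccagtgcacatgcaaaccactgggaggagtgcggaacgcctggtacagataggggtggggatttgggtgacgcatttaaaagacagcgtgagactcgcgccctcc

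Values are CPM, read counts of a gene scaled to a common library size. The libraries held between 16559919 and 17729524 estimated reads in control and between 16161807 and 18954736 with CML, so 1 read was worth between 0.0535 and 0.0622 CPM. All 6 mesenchymal genes of a triple-negative line, such as VIM and CD44, were present, with a summed level of 7334 to 7529 CPM in control and 7513 to 7878 CPM with CML. Of 8 luminal markers, ESR1 had no row and 3 reached a mean of 1 CPM, with sums of 286 to 336 and 289 to 340 CPM, nearly all of it the keratin KRT19 (means of 289 and 302 CPM). Leukocyte markers summed to 0.912 to 2.27 CPM in control and 1.06 to 1.58 CPM with CML, and 4 of those 6 had no row. Both libraries numbered 4 stood apart from the other 6. Across 12978 genes, the deviation of a library from the gene means was correlated with transcript GC content at a Spearman rho of -0.530 in control replicate 4 and -0.526 in CML replicate 4, against 0.501 in control replicate 1 and 0.130 to 0.221 in the others. Results are therefore also given with these libraries left out and with the trend removed. In bulk RNA, fewer cells with a transcript and less of it per cell cannot be told apart.

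No gene of the 10 passed the test in the values as deposited. limma on log2(CPM + 1) with Benjamini-Hochberg adjustment over all genes, called at an adjusted p under 0.3, called 0 of the 10, against a background of 0.895% of genes (158 of 17649). At an unadjusted p under 0.05, 2 of the 10, NFKB1 and BIRC3, were higher with CML (background 4.77%). Log2 fold changes were all above 0, from 0.04 to 0.12 with a median of 0.08, where 62.6% of the 9410 genes averaging 10 CPM or more lay above 0 and their median was 0.02. They stayed above 0 when libraries were centred on their median or quantile normalized. For none of the 10 were the groups without overlap (background 4.71%). The mean differences were between 2.65% and 8.59%, so that what follows concerns differences of a few percent.

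**Figure D1:**
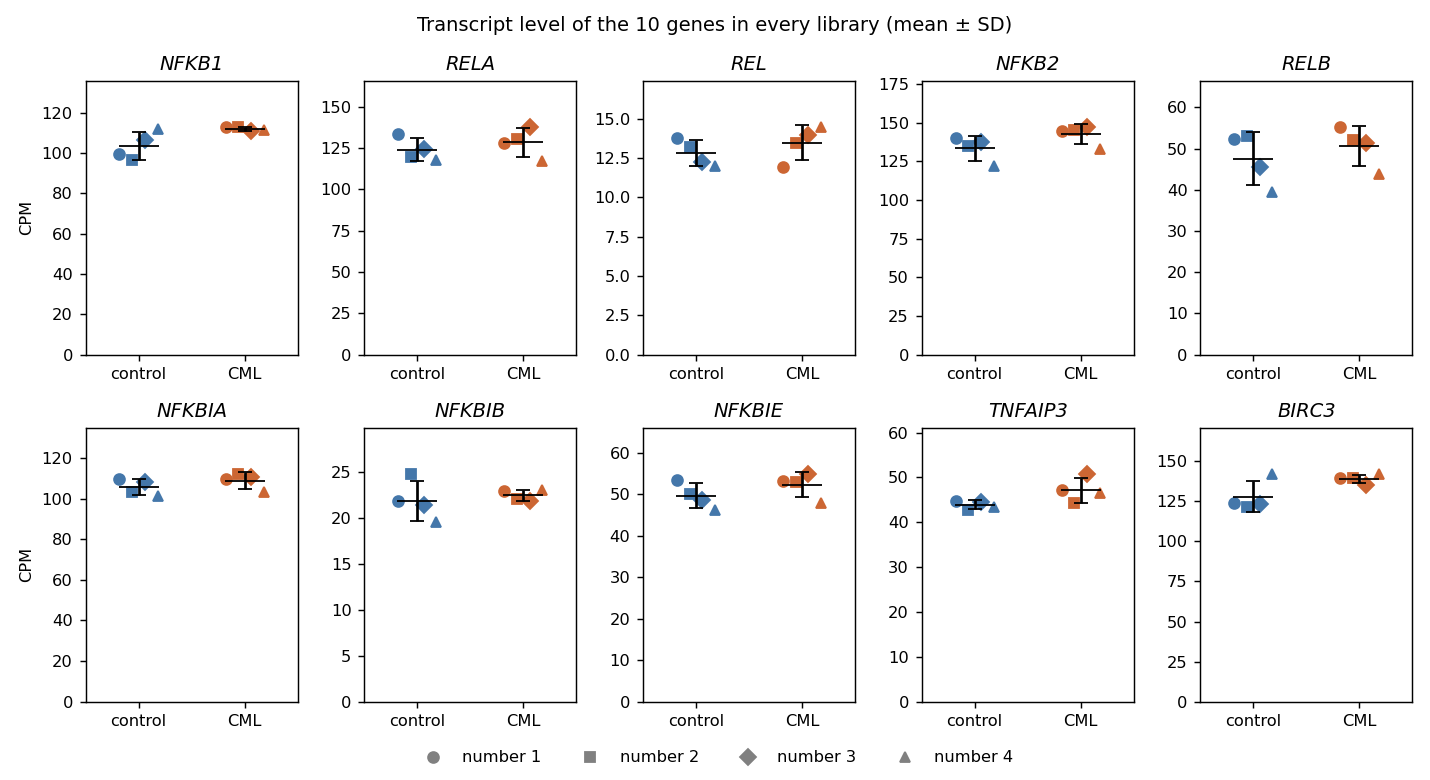
Transcript level in CPM (axes from 0) of the 10 genes in each of 4 control (blue) and 4 CML (orange) libraries, with a marker shape for each replicate number and black bars for mean ± SD. The groups overlap in every panel, and the triangles (replicates numbered 4) lie lowest of their group for NFKB2, RELA, RELB, NFKBIA and NFKBIE in both groups and highest for BIRC3 in both.

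Among the classical subunits, NFKB1 (ENSG00000109320, GRCh38 chr4:102501359-102617302), the precursor of p50, stood at 99.4, 96.5, 107 and 112 CPM in control and at 113, 113, 111 and 112 CPM with CML. The CML libraries lay close together at the upper end of the control range, and all 4 were above the control median. Their SD was 0.91% of the mean, below the 2.33% from counting alone, so that closeness does not measure precision. Means were 104 ± 6.96 and 112 ± 1.02 CPM (SD, n = 4 each), a difference of 8.27%, with a log2 fold change of 0.12 (SE 0.045, 95% interval 0.0087 to 0.22, limma adjusted p = 0.609). RELA (ENSG00000173039, chr11:65653601-65663857), the p65 subunit with the main activation domain, stood at 133, 119, 125 and 118 CPM in control and at 128, 130, 138 and 117 CPM with CML. The groups overlapped throughout, with means of 124 ± 6.91 and 128 ± 8.62 CPM (limma log2 fold change 0.05, SE 0.058, adjusted p = 0.929). REL (ENSG00000162924, chr2:60881574-60931612), the subunit c-Rel best known from lymphocytes, was the lowest of the 10, at 12.01 to 13.8 CPM in control and 11.9 to 14.5 CPM with CML. Its log2 fold change was 0.07 (SE 0.071, limma adjusted p = 0.921). REL is uncertain, because 33.3% of its exon bases are shared on the same strand with AC010733.2 (6.07 to 10.4 CPM), and its values came to whole reads in only 3 of 8 libraries. RELA, NFKBIB and TNFAIP3 share 1.47% to 1.89% of their exon bases with a gene on the opposite strand, and whether reads were counted by strand is not given in the sources used here.

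Both genes of the alternative pair had higher means with CML, and neither passed the test. NFKB2 (ENSG00000077150, chr10:102394110-102402529), the precursor of p52, stood at 140, 135, 137 and 122 CPM in control and at 145, 145, 147 and 133 CPM with CML. Libraries 1 to 3 with CML were above every control, and the replicate numbered 4 was the lowest of each group. Means were 133 ± 8.05 and 142 ± 6.62 CPM (SD, n = 4), which gave 0.09 as log2 fold change (SE 0.052, 95% interval -0.029 to 0.22, limma adjusted p = 0.762). RELB (ENSG00000104856, chr19:45001464-45038192), its partner, stood at 52.3, 53.0, 45.5 and 39.5 CPM in control and at 55.3, 52.2, 51.3 and 43.9 CPM with CML. RELB varied most of the 10, with an SD of 13.4% of the mean in control, against 3.46% from counting alone. Its log2 fold change of 0.09 had an SE of 0.11 (limma adjusted p = 0.940).

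No IκB inhibitor passed the test, and NFKBIA and NFKBIB had the smallest fold changes of the 10. NFKBIA (ENSG00000100906, chr14:35401513-35404749), the inhibitor IκBα that is resynthesised when NF-κB is active, stood at 110, 103, 108 and 101 CPM in control and at 110, 112, 110 and 103 CPM with CML. With means of 106 ± 3.91 and 109 ± 4.04 CPM (SD, n = 4), the ranges lay almost on top of each other. The log2 fold change was 0.04 (SE 0.036), and its 95% interval of -0.041 to 0.13 bounds the difference without showing that there was none (limma adjusted p = 0.897). NFKBIB (ENSG00000104825, chr19:38899666-38908889), IκBβ, was at 19.5 to 24.8 CPM in control and 21.8 to 23.0 CPM with CML, so the CML values lay inside the control range (log2 fold change 0.04, SE 0.068, limma adjusted p = 0.977). Its direction turned to -0.01 without control replicate 4. NFKBIE (ENSG00000146232, chr6:44258166-44265551), IκBε, stood at 53.5, 50.1, 48.6 and 46.2 CPM in control and at 53.1, 53.0, 54.9 and 47.9 CPM with CML, and the groups overlapped (log2 fold change 0.07, SE 0.057, limma adjusted p = 0.878).

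Of the ubiquitin enzymes, TNFAIP3 (ENSG00000118503, chr6:137866349-137883312), the editing enzyme A20 that shuts down signalling, stood at 44.8, 42.8, 44.6 and 43.4 CPM in control and at 47.2, 44.2, 50.8 and 46.4 CPM with CML. In CML 3 of 4 libraries were above the highest control. Means were 43.9 ± 0.974 and 47.2 ± 2.76 CPM (SD, n = 4), which gave 0.10 as log2 fold change (SE 0.042, 95% interval -0.00048 to 0.20, limma adjusted p = 0.652). BIRC3 (ENSG00000023445, chr11:102317484-102339403), the ligase cIAP2, stood at 124.1, 121.7, 123.5 and 142.1 CPM in control and at 139.2, 139.2, 135.2 and 141.8 CPM with CML. The first 3 controls lay below every CML library, and control replicate 4 lay above them all. Means were 128 ± 9.57 and 139 ± 2.71 CPM (SD, n = 4), the largest log2 fold change of the 10 at 0.12 (SE 0.050, 95% interval 0.0018 to 0.24, limma adjusted p = 0.641). NFKB2 and TNFAIP3 were higher with CML in 4 of 4 comparisons of libraries with the same number, RELA in 2 of 4 and the other 7 genes in 3 of 4. The labels state no pairing by number and the share over all genes was not counted, so nothing is drawn from these counts.

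Per kilobase of the canonical transcript, NFKBIA was the most abundant of the 10 in control, at 67.7 ± 2.51 CPM per kb (SD, n = 4). RELA followed at 49.2 ± 2.74, NFKB2 at 44.3 ± 2.67 and NFKB1 at 25.5 ± 1.72 CPM per kb, and none of these 4 overlapped its neighbour in the order. NFKBIE (21.2 ± 1.30), RELB (21.1 ± 2.82), BIRC3 (18.6 ± 1.39) and NFKBIB (18.3 ± 1.84 CPM per kb) formed a group in which each overlapped the next. TNFAIP3 at 9.42 ± 0.209 and REL at 1.15 ± 0.0751 CPM per kb were lowest. The level of REL is uncertain here too, because of the exon bases it shares with AC010733.2. With CML the order was the same except that RELB (22.4 ± 2.15) stood above NFKBIE (22.3 ± 1.29 CPM per kb), and those ranges overlapped. NFKBIB and BIRC3 did not overlap with CML, at 18.3 to 19.3 and 19.7 to 20.6 CPM per kb.

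**Figure D2:**
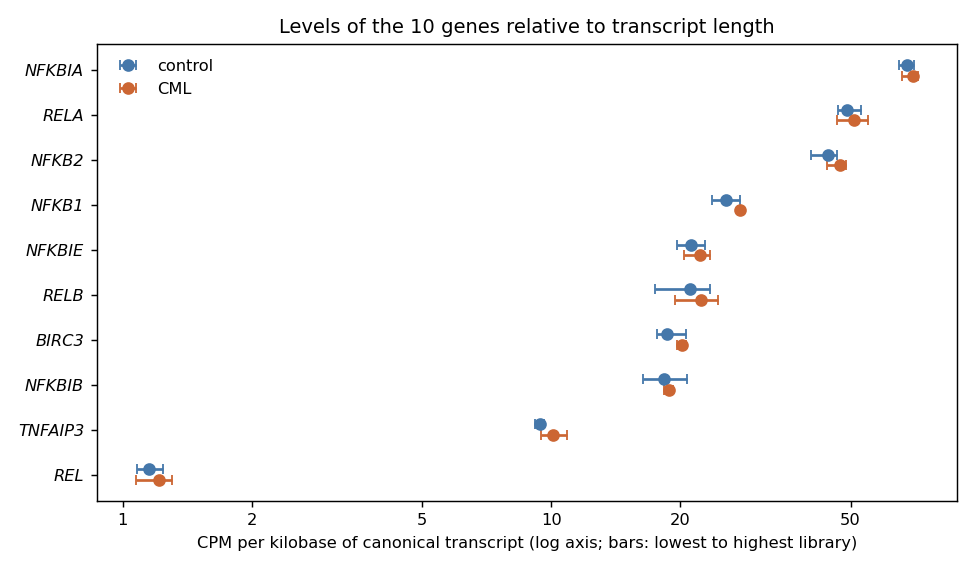
Mean level in CPM per kilobase of canonical transcript (log axis) for each gene in control (blue) and CML (orange), with bars from the lowest to the highest of 4 libraries. NFKBIA is highest at 67.7 CPM per kb in control, REL lowest at 1.15, and in control each of NFKBIE, RELB, BIRC3 and NFKBIB overlaps the next.

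The libraries numbered 4 departed from the others of their group, for several of the 10 genes by more than the groups differed. Relative to the mean of the other 3 controls, control replicate 4 was at 15.5% for BIRC3, whose transcript has the lowest GC content of the 10 (35.8%), and at -21.5% for RELB, which has the highest (64.9%). NFKB2 (61.2% GC) was at -11.4% in control replicate 4 and at -8.93% in CML replicate 4, both relative to the other libraries of the same group. NFKBIE was likewise low in both, at -8.85% and -10.8%, as was RELA, at -6.28% and -11.4%. NFKB1 (50.1% GC) stood high in control replicate 4, 11% above the other controls, and within its group in CML replicate 4, at -0.615%. TNFAIP3 (49.3% GC) departed little in either, at -1.51% and -2.07%. REL and NFKBIB did not follow GC content in both libraries, REL being at -8.15% in control replicate 4 and at 10.5% in CML replicate 4. What part GC content itself had in these deviations was not tested.

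**Figure D3:**
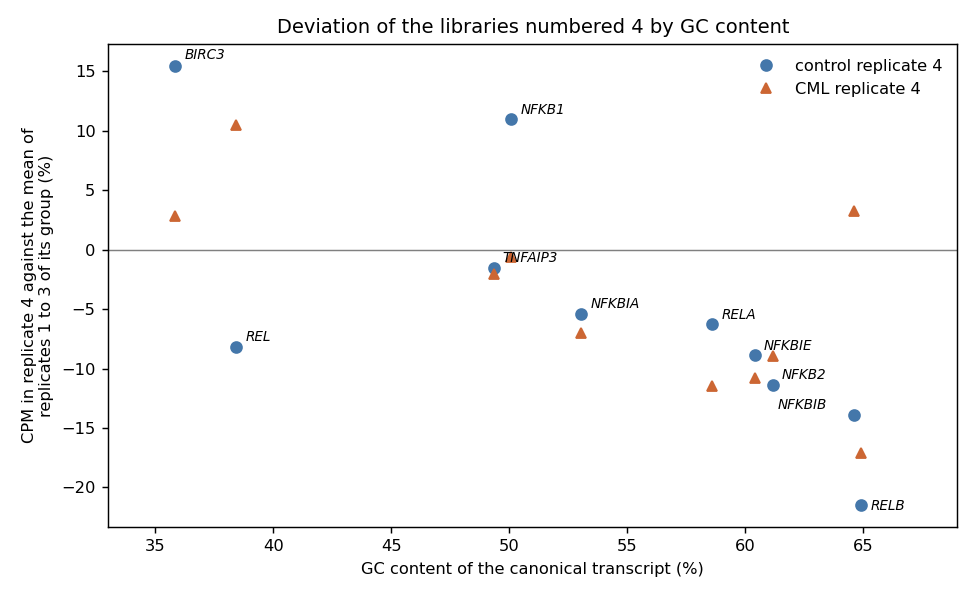
Percent by which CPM in replicate 4 lay above or below the mean of replicates 1 to 3 of its group, against GC content of the canonical transcript, for control (blue circles, labelled) and CML (orange triangles). From NFKBIA at 53.0% GC upwards, all points but NFKBIB in CML lie below 0.

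When each library was first corrected for a trend with transcript GC content and length, 3 of the 10 passed the same limma test, all higher with CML, namely NFKB2, NFKB1 and BIRC3 (background 6.73%, 874 of 12978 genes). The fold changes of NFKB1 and NFKB2 stayed within 0.01 of those above, and that of BIRC3 went from 0.12 to 0.09. For NFKB2, the corrected log2 values were 7.05, 7.07, 7.10 and 7.06 in control and 7.16, 7.16, 7.17 and 7.16 with CML, and the groups no longer overlapped. The SD on the log2 scale was 0.089 before and 0.023 after correction in control, and 0.068 and 0.0049 with CML. Counting alone gives NFKB2 an SD of 2.06% of its mean, more than this last spread, so that closeness does not measure precision. The log2 fold change was 0.09 (SE 0.025, limma adjusted p = 0.0875). For NFKB1, the corrected values were 6.67, 6.63, 6.74 and 6.79 in control and 6.84, 6.82, 6.81 and 6.82 with CML, again without overlap (log2 fold change 0.11, SE 0.033, limma adjusted p = 0.112). BIRC3 had a corrected log2 fold change of 0.09 (SE 0.030, limma adjusted p = 0.194), with 3 of 4 CML libraries above the highest control. NFKBIE had corrected groups without overlap but did not pass (log2 fold change 0.07, SE 0.037, limma adjusted p = 0.507). The share of all corrected genes without overlap was not counted, so nothing is drawn from the lack of overlap in NFKB2, NFKB1 and NFKBIE. RELA, RELB, NFKBIA, NFKBIB, TNFAIP3 and REL also did not pass, with limma adjusted p from 0.450 to 0.913. The SD on the log2 scale rose with the correction for TNFAIP3 in both groups, REL in control (0.087 to 0.152) and NFKBIB with CML (0.036 to 0.106). It fell for the other genes, and for REL and NFKBIB in their other group.

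The same 3 genes were those that crossed the threshold when control replicate 4, or both libraries numbered 4, were left out. Leaving out any other single library called 0 of the 10. Without control replicate 4, limma called BIRC3 (log2 fold change 0.17, SE 0.018, adjusted p = 0.0704) and NFKB1 (0.15, SE 0.034, adjusted p = 0.235), against a background of 3.91%. Without both libraries numbered 4, an alternative chosen after the values were seen, it called BIRC3 (0.16, SE 0.016, adjusted p = 0.154) and NFKB2 (0.09, SE 0.017, adjusted p = 0.266), against 1.82%. NFKB1 was then just outside, at an adjusted p of 0.343. BIRC3 was the gene called after the correction and in both of these fits, and none of the 10 was called as deposited. These results are not independent of each other, and control replicate 4 was the highest control for both BIRC3 and NFKB1.

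**Figure D4:**
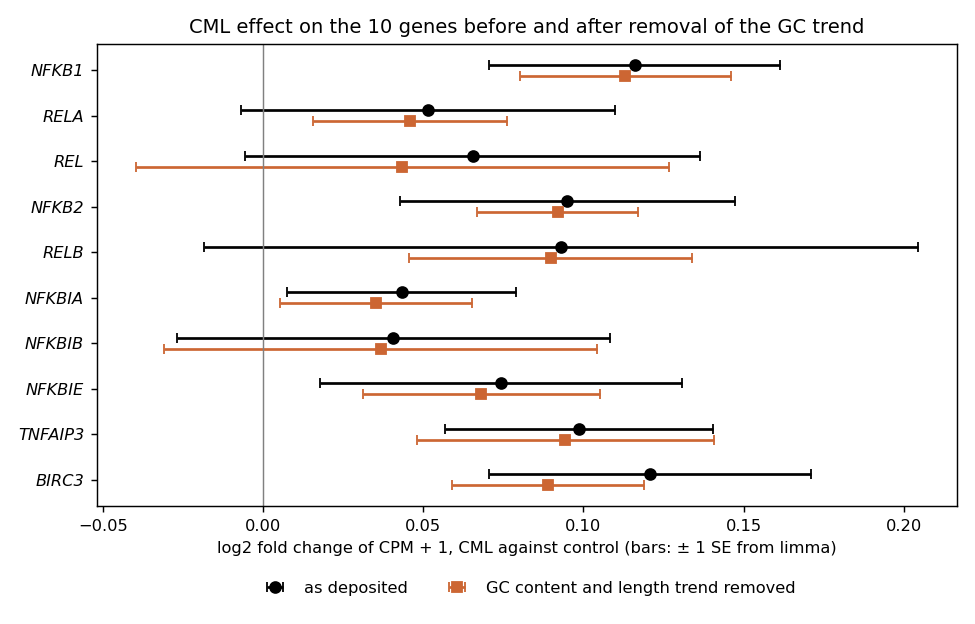
Log2 fold change of CPM + 1, CML against control, for each gene in the values as deposited (black circles) and after removal of the GC content and length trend (orange squares), with bars of ± 1 SE from limma. All 20 points lie above 0, and the bars shorten after removal for NFKB2, RELB, BIRC3, RELA, NFKBIE, NFKB1 and NFKBIA lengthen for REL and TNFAIP3, and stay nearly as they were for NFKBIB.

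Ratios within a library, which do not depend on its scaling, asked whether the balance of the system shifted. The log2 ratio of NFKB2 to NFKB1, the precursors of the alternative and the classical pathway, was 0.36 ± 0.17 in control and 0.34 ± 0.067 with CML (SD, n = 4, difference -0.02, 2-sided exact permutation p = 0.8286). For RELB to RELA the ratio was -1.37 ± 0.17 and -1.33 ± 0.098 (difference 0.04, exact permutation p = 0.686). NFKBIA to RELA, the inhibitor against the subunit it binds, was at -0.23 ± 0.035 and -0.23 ± 0.057 (difference -0.01, exact permutation p = 0.771). BIRC3 to BIRC2, its neighbouring paralog cIAP1, was at -0.51 ± 0.077 and -0.50 ± 0.038 (difference 0.01, exact permutation p = 0.914). Adjusted over the 4 ratios all were 0.914, and the smallest p this design allows is 0.0286. No shift was detected in any of the 4, and each difference changed sign when some single library was left out.

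The rest of the pathway was read from 4 lists. Of other nuclear and IκB-like regulators, 0 of 4 in the table were called (background 0.895%). NFKBIZ, an inducible nuclear IκB, was at 61.6, 58.2, 65.0 and 65.7 CPM in control and at 67.6, 68.1, 73.1 and 67.8 CPM with CML, and all CML libraries were above all controls. Its log2 fold change was 0.14 (SE 0.045, limma adjusted p = 0.489). NKRF and BCL3 differed by 0.04 and 0.05 on the log2 scale (limma adjusted p = 0.951 and 1), and BCL3 turned below 0 without control replicate 4.

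Of 14 genes of the IκB kinase complex, the kinases above it and their adaptors, 0 were called (background 0.895%). Of these, 8 lay above 0 and 6 below, where 62.6% of genes averaging 10 CPM or more lay above 0. Neither count stands apart from its background. TBK1, a related kinase, was at 35.2 ± 3.14 and 37.9 ± 1.15 CPM (limma adjusted p = 0.789). IKBKG, the scaffold NEMO, was at 31.8 ± 4.41 and 29.0 ± 2.28 CPM (limma adjusted p = 0.897), and is uncertain because its values came to whole reads in only 2 of 8 libraries. TAB2, which binds ubiquitin chains, was at 129 ± 7.56 and 134 ± 5.38 CPM (SD, n = 4, limma adjusted p = 0.897). Of 19 ubiquitin ligases, deubiquitinases and proteins that work with them, 0 were called (background 0.895%). CYLD, a deubiquitinase that restrains the pathway, was at 75.5 ± 2.65 and 80.9 ± 3.37 CPM (limma adjusted p = 0.593), and BIRC2 at 182 ± 9.76 and 196 ± 7.32 CPM (limma adjusted p = 0.615). RBCK1, part of the linear ubiquitin ligase, was lower at 204 ± 11.7 and 191 ± 3.51 CPM (limma adjusted p = 0.706). Among the named genes of these lists, TBK1, RBCK1 and NFKBIZ passed without control replicate 4 (limma adjusted p = 0.216, 0.118 and 0.299, background 3.91%). After the correction for GC content and length, BIRC2, RBCK1 and NFKBIZ passed (0.106, 0.108 and 0.127, background 6.73%). How many of the other genes in these lists passed was not counted, so nothing is drawn from these passes.

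Downstream of the 10 genes, the target list held the calls. Of 27 NF-κB target genes in the table, 3 were called (background 0.895%) and all 3 rose: the neutrophil chemokines CXCL8, CXCL1 and CXCL2. CXCL1 and CXCL2 are close paralogs, and the values of both came to whole reads in all 8 libraries. How reads shared by paralogs were counted is not given in the sources used here. In 8 of the 27 all CML libraries lay above all controls. The same held for 442 of all 17649 genes, and for 331 of the 9410 averaging 10 CPM or more. The list was chosen with earlier results of these data known. Beside the 3 chemokines, the 8 included CXCL3, IL6, CSF2, SOD2 and PLAU, named after their values were seen, which did not pass as deposited. CSF2, the cytokine GM-CSF, passed after the correction for GC content and length (limma adjusted p = 0.00222) and without control replicate 4 (0.213). The median log2 fold change of the list was 0.08, against 0.01 over all genes and 0.02 over those averaging 10 CPM or more. CXCL8 was at 908 ± 35.7 CPM in control and 1076 ± 38.6 CPM with CML (log2 fold change 0.24, SE 0.037, limma adjusted p = 0.145). CXCL1 was at 126 ± 5.72 and 148 ± 4.00 CPM (0.22, SE 0.036, limma adjusted p = 0.153), and CXCL2 at 67.6 ± 1.82 and 75.1 ± 2.48 CPM (0.15, SE 0.030, limma adjusted p = 0.242). After the correction for GC content and length all 3 passed, with limma adjusted p of 4.3e-06 for CXCL8, 0.00148 for CXCL1 and 0.0606 for CXCL2. As deposited, all 3 were lost without CML replicate 2, CXCL1 also without CML replicate 3 or 4, CXCL8 also without control replicate 2 or 3 or CML replicate 3, and CXCL2 without any library other than control replicate 4, at limma adjusted p from 0.302 to 0.425. Without both libraries numbered 4, CXCL8 passed (0.170) and CXCL1 and CXCL2 did not (0.313 and 0.354). Whether targets and machinery differed in response was not tested.

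The genes whose log2 level was most like that of NFKBIA across the 8 libraries, among 9400 genes averaging 10 CPM or more, were RUSC2 (Pearson r = 0.994), AAMP (0.988), ARF1 (0.981), MYO1C (0.975) and TNIP1 (0.970). These are the largest of 9400 values over 8 libraries that share depth and GC deviations, so no p is given. None of the 5 was called (limma adjusted p from 0.769 to 0.940), and their transcripts have a GC content of 54.0% to 60.9%, all above the 53.0% of NFKBIA.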

How the data were processed

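RNA-Seq of 8 libraries was analysed, grouped by sample title. The authors deposited CPM values in 8 columns. Per the labels, the submitters' processing notes name edgeR and hg38, and the study's methods describe TMM-scaled CPM for its other RNA-Seq. For tumors those methods name Tophat, hg19 and Ensembl annotation. For these libraries the aligner and annotation are not given in the sources used here, and NextSeq and HiSeq are both named as the instrument. Between 86.2% and 87.2% of values came to whole reads (within 0.05 read), so no count test was run.

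Rows of 1 symbol were averaged and log2(CPM + 1) was tested with limma 3.58.1 (R 4.3.3, variance trend), checked on simulated data. The threshold of 0.3 is the study's. Positions are RefSeq's, and GC content and length come from GENCODE canonical transcripts. Named in each list were genes called and the 3 with the smallest p at a mean of at least 1 CPM. Members, lists and tests were chosen with earlier results of these data known. Alternatives were a pseudocount of 0.1, a minimum of 1 CPM, separate rows, 2 scalings, no trend, removal of GC and length, a replicate block and each library left out.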

Additional observations from a re-analysis of the deposited data

Results flagged for a closer look

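Single libraries that stood far from the other 3 of their group were looked for in 52 groups of 4. Chance flags about 1 in 20 groups, or 2.6 here, and 4 were found. BIRC3 was at 142.1 CPM in control replicate 4, against 121.7 to 124.1 CPM in the other controls. RBCK1 was at 186.3 CPM in that same library, against 207.8 to 212.2 CPM. NFKBIZ was at 73.1 CPM in CML replicate 3, against 67.6 to 68.1 CPM in the others with CML. The log2 ratio of NFKBIA to RELA was -0.28 in control replicate 1, against -0.22 to -0.20.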

How the results depend on the processing

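Over all genes, 158 were called as deposited, 73 after centring on library medians, 141 among 13047 genes averaging 1 CPM or more, 874 among 12978 of those after removal of GC content and length, 924 with that removal and the replicate block, 321 without both libraries numbered 4, and 20 (without CML replicate 2) to 690 (without control replicate 4) with 1 library left out. Of the 10 genes, 0 were called as deposited, 3 after the removal with or without the block, 2 without both libraries numbered 4, and 0 to 2 with 1 library left out. The cause of these shifts was not tested. NFKBIB ranged from -0.0100 to 0.1002 on the log2 scale with 1 library left out and was -0.0211 without both numbered 4. BCL3 ranged from -0.0503 to 0.110 and was -0.00344. Differences of the log2 ratios ranged from -0.102 to 0.0207 for NFKB2 to NFKB1, -0.0201 to 0.112 for RELB to RELA, -0.0256 to 0.0190 for NFKBIA to RELA and -0.0182 to 0.0318 for BIRC3 to BIRC2. Of 396 alternative values of the fold changes of single genes, counts and ratios not included, 351 kept their direction and side of the threshold. Most of these genes were not called as deposited, so that total says little about the calls. Of the chemokines called as deposited, CXCL2 lost its call in 11 alternatives and kept it in 7. For CXCL1 these numbers were 5 and 13, and for CXCL8 they were 4 and 14.

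The replicate block alone called 189 genes and 0 of the 10, with CXCL1 (adjusted p = 0.356) and CXCL2 (0.382) no longer called and CXCL8 called (0.212). CXCL2 was also lost after centring (0.394) and quantile normalization (0.421). Correlations of same-numbered libraries were 0.199, -0.0303, -0.0645 and 0.334, and 4 of 8 libraries correlated best with their own number, so the numbers were not taken as a pairing.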
